A study of Mus musculus with 70 samples.

Results

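The comparison of RES vs. CON mice in Ly6C-low monocytes used the 10 libraries whose labels give the cell type as Ly6low and the condition as RES or CON, out of 70 libraries in the series. There were 6 libraries from RES mice and 4 from CON mice, and all genes were compared. The labels give condition, cell type and source, and name no mouse or batch. The mice were young adult males of the inbred strain C57BL/6J. RES (resilient) mice went through chronic social defeat stress (CSDS) for 10 days (daily attack by a larger CD-1 aggressor mouse) and then did not avoid a social target in the social interaction test, SUS (susceptible) mice had the same stress and avoided it, and CON mice were unstressed controls and housed in pairs across a divider. Monocytes of the Ly6C-low gate were sorted from blood into Trizol, with antibodies to CD11b, Ly6C, Ly6G, B220 and CD90.2. The labels give the brain as the source, which conflicts with the series' own design text and with the study's methods, which describe trunk blood. Blood is taken as the source here, and why the labels differ is not given. As no label tells separate animals from repeated samples of one, the p-values measure the spread between these libraries.

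Ly6C-low monocytes are the patrolling monocytes of mouse blood. They arise from Ly6C-high (classical) monocytes, depend on the nuclear receptor Nr4a1, crawl along the inner face of vessels and take up particles and dying cells there. The Ly6C-high cells are recruited into inflamed tissue, and both kinds bind antibody-coated targets through Fc receptors.

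The defining markers of the labelled cell type were present. Ace, the angiotensin-converting enzyme that marks patrolling monocytes, was at 3140 ± 415 TMM-normalized CPM (counts scaled to library size) in CON (SD, n = 4) and 3083 ± 212 in RES libraries (SD, n = 6). The 12 tested patrolling markers had a median log2 fold change of 0.03, with 2 higher and 1 lower at unadjusted p under 0.05. All 12 patrolling markers were detected in all 10 libraries, and their summed level was 10465 to 13852 CPM in CON and 11977 to 13736 CPM in RES libraries. On a scale normalized over all 70 libraries, Ly6c2, which encodes the antigen used for the gate, was at 0.677 ± 0.486 CPM in Ly6C-low CON and 1.10 ± 0.727 CPM in Ly6C-low RES libraries, against 263 ± 25.6 CPM in Ly6C-high CON libraries (SD, n = 6). Ccr2, the chemokine receptor of classical monocytes, was at 265 ± 58.9 and 271 ± 88.6 CPM in the 2 Ly6C-low groups and at 2014 ± 398 CPM in the Ly6C-high CON libraries. Total counts were 30964483 to 37936864 in RES and 27095178 to 35280211 in CON libraries (p = 0.0952 in a two-sided exact permutation test, or 0.381 after adjustment for 4 library measures). The other 3 measures (percent of mitochondrial counts, percent of counts in the noncoding genes Gm23935 and Gm26917, and genes detected) gave adjusted p = 0.6 each in the same exact permutation test.

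Few genes separated RES from CON mice. Of 19521 genes tested with edgeR's quasi-likelihood test, 3 passed an adjusted p-value under 0.05 with a log2 fold change beyond 1, which is 0.0154% of the genes tested, and all 3 were higher in RES. Fcgr1 and Mpzl3 were among them. At the adjusted p alone 5 genes passed (0.0256%), the other two being Slc46a3 and Fchsd2, which were lower in RES mice. Before adjustment, 1095 genes (5.61%) were higher and 793 (4.06%) were lower in RES at p under 0.05. In 500 genes (2.56%) the 6 RES and 4 CON libraries did not overlap, with 266 higher and 234 lower in RES. The median log2 fold change of all genes tested was -0.0056. In 6 of the 16 Ly6C-low libraries (RES replicates 3, 4 and 5, CON replicate 3 and SUS replicates 4 and 5) Gm23935 and Gm26917 took 6.33% to 13.1% of the counts, against 0.395% to 1.91% in the other 10, and these 6 carry consecutive library numbers. With a term for them 3 genes were called. In the other 10 libraries alone (3 CON, 3 RES and 4 SUS) edgeR called 0 genes, with 948 higher and 680 lower at unadjusted p under 0.05, and the log2 fold changes of Fcgr1 and Mpzl3 were 1.19 and 1.21 with adjusted p = 0.167 and 0.20. The 6 libraries hold 1 CON library, so no test was made within them.

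**Figure D1:**
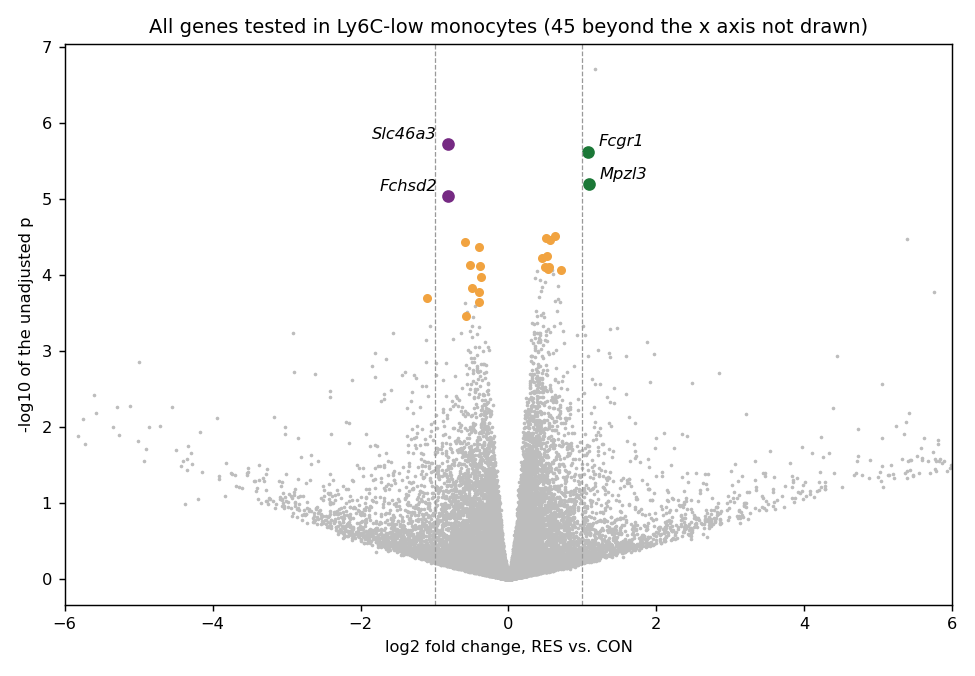
Log2 fold change of RES vs. CON mice (x axis) against -log10 of the unadjusted p (y axis) for the genes tested in Ly6C-low monocytes. Green and purple points are Fcgr1, Mpzl3, Slc46a3 and Fchsd2, orange points other genes with small p and no overlap between the groups, and dashed lines mark the log2 fold change of 1. Fcgr1 and Mpzl3 stand to the right of the line and Slc46a3 and Fchsd2 inside it on the left.

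Fcgr1 encodes the high-affinity receptor for IgG (CD64), which lets phagocytes bind and engulf antibody-coated targets and rises with interferon gamma in myeloid cells. Its levels were 17.7, 19.0, 20.5 and 30.1 CPM in CON libraries. The RES libraries ran from 38.3 over a median of 43.5 to 54.6 CPM. No RES library reached down to the CON range, and the log2 fold change was 1.08 (SE 0.18, adjusted p = 0.0154 from edgeR). It passed both thresholds in 5 of the 10 fits with a library left out.

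Mpzl3 encodes a membrane protein with an immunoglobulin domain. The 4 CON libraries held 6.51, 9.13, 9.32 and 10.2 CPM, and the 6 RES libraries 16.6 to 22.1 CPM with a median of 18.6 CPM. The groups did not overlap, with means of 8.78 ± 1.58 and 18.7 ± 1.98 CPM (SD, n = 4 and 6). The log2 fold change was 1.09 (SE 0.20, adjusted p = 0.031 from edgeR), and it passed both thresholds in 1 of the 10 fits with a library left out, where its log2 fold change was 0.97 to 1.16.

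Slc46a3, a lysosomal membrane transporter, fell in RES mice. It was at 142, 142, 163 and 164 CPM in CON libraries and at 62.3 at the lowest, 83.4 at the median and 108.5 at the highest in RES libraries. Its log2 fold change was -0.82 (SE 0.14, adjusted p = 0.0154 from edgeR). Fchsd2, a membrane-bending protein that acts in endocytosis, was at 37.1, 40.4, 43.0 and 46.1 CPM in CON and at 20.3 to 28.2 CPM with a median of 23.8 CPM in RES libraries. Its log2 fold change was -0.81 (SE 0.15, adjusted p = 0.0353 from edgeR). For both, the highest RES library lay under the lowest CON library. With a library left out, the adjusted p stayed under 0.05 in 5 of 10 fits for Slc46a3 and in 1 of 10 for Fchsd2.

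**Figure D2:**
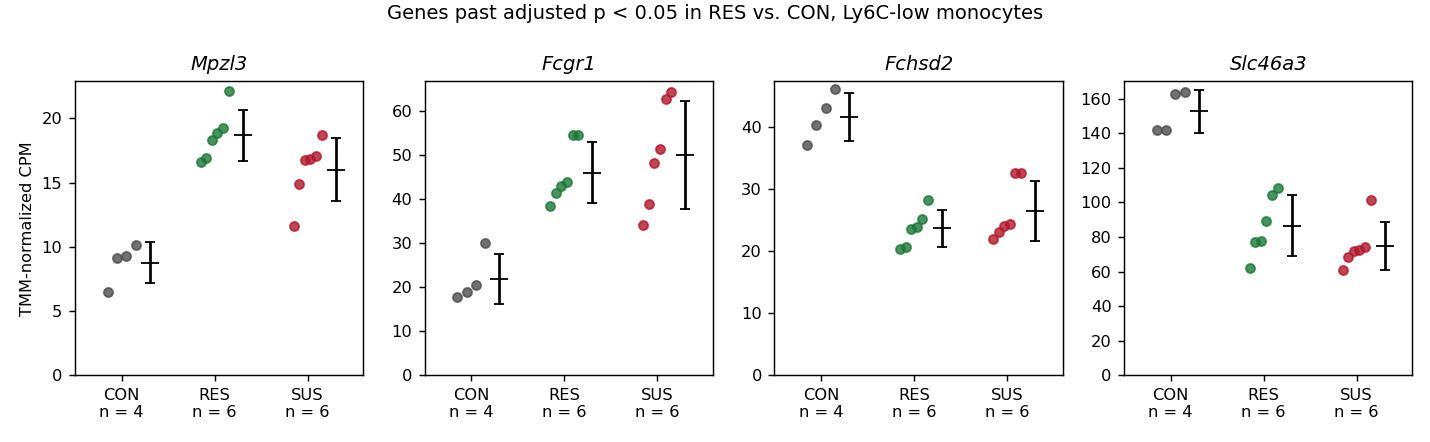
TMM-normalized CPM (y axis, from 0) of 4 genes past the adjusted p in each Ly6C-low library of CON, RES and SUS mice. Points are libraries, and the black bars give the mean and SD. RES libraries lie above all CON libraries for Mpzl3 and Fcgr1 and below all of them for Fchsd2 and Slc46a3, and the SUS libraries do the same.

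These genes lie on different chromosomes of GRCm38 in the GENCODE M21 annotation. Fcgr1 (ENSMUSG00000015947) spans chr3:96282909-96293969 on the minus strand, Mpzl3 (ENSMUSG00000070305) chr9:45055186-45077436 on the plus strand, Slc46a3 (ENSMUSG00000029650) chr5:147878437-147894815 on the minus strand and Fchsd2 (ENSMUSG00000030691) chr7:101092863-101284405 on the plus strand. Of these 4 genes, 3 (Fcgr1, Slc46a3 and Fchsd2) had a promoter in the RefSeq table used (GRCm38.p6, 250 bases before to 50 after the start). The promoters of Fcgr1 and Slc46a3, of which Fcgr1 rose and Slc46a3 fell, are shown as they share a motif. The RefSeq start of Fchsd2 lies inside the GENCODE gene, downstream of its annotated start. In the sequences the capitals mark matches to TTCNNNGAA, the element that STAT factors bind, and in Fcgr1 also GAGGAA, the core of the site of the myeloid factor PU.1, on either strand. The Fcgr1 window is chr3:96293920-96294219 and that of Slc46a3 chr5:147894766-147895065, both on the minus strand and read 5′ to 3′.
Fcgr1: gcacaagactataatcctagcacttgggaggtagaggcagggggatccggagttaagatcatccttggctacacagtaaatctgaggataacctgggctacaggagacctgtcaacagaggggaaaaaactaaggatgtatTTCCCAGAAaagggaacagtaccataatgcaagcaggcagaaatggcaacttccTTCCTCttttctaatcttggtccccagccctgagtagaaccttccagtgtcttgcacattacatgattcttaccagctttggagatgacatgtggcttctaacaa
Slc46a3: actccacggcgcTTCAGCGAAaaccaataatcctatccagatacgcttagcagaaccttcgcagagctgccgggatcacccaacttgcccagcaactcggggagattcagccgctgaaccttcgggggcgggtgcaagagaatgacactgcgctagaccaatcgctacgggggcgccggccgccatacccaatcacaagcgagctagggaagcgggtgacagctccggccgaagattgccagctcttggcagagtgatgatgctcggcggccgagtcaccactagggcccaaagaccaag

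The STAT element begins at position -109 from the start of Fcgr1 and at position -238 of Slc46a3, and the PU.1 core of Fcgr1 at position -55. TTCNNNGAA occurs in 8.3% of the 32851 RefSeq promoters and GAGGAA in 28.3%. The Fchsd2 promoter held a PU.1 core at position -240 and no STAT element. None of the 3 promoters held GAAANNGAA (the core of the interferon-stimulated response element, in 8.56% of promoters) or ACANNNTGT (paired half-sites of the glucocorticoid receptor, in 6.85%). A match of letters is not a bound site.

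Of 10997 protein-coding genes that averaged 50 counts or more, 217 were higher and 147 lower in RES with the libraries of the groups apart. Over all genes tested, the share without overlap was 2.56%. The genes named here come from the 12 of each direction with the smallest p. The higher ones named next missed the adjusted threshold, with adjusted p from 0.0719 to 0.082 (edgeR) and log2 fold changes of 0.50 to 0.71. Pla2g7, the lipase that inactivates platelet-activating factor, went from 187 ± 16.6 CPM in CON to 288 ± 23.3 CPM in RES libraries (SD, n = 4 and 6), a log2 fold change of 0.62 (SE 0.12). Smpdl3a, a secreted phosphodiesterase of the acid sphingomyelinase family, went from 285 ± 13.5 to 405 ± 38.9 CPM. Others of this group were Epsti1, an interferon-inducible gene (log2 fold change 0.55), Use1, a SNARE of traffic to the endoplasmic reticulum (0.52), Rab5c, a GTPase of early endosomes (0.50), Prdx5, a peroxiredoxin (0.55), the kinase Rps6ka2 (0.53) and Mtus1, a microtubule-associated protein (0.71).

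The 10 lower ones had adjusted p of 0.0719 to 0.138 (edgeR). Mtmr4, a phosphatase of endosomal phosphoinositides, was at 76.7 ± 11.5 CPM in CON and 51.1 ± 5.89 CPM in RES libraries (log2 fold change -0.59, SE 0.12). Nfat5, the transcription factor of osmotic stress, was at 362 ± 16.6 and 275 ± 25.6 CPM (log2 fold change -0.40, SE 0.08). Camkk2, a calcium-dependent kinase upstream of AMPK, was at 318 ± 15.6 and 222 ± 24.9 CPM. The lowest fold change belonged to Ica1l, at -1.11 (SE 0.26) from 14.3 ± 2.98 to 6.62 ± 1.43 CPM. DESeq2 called Ica1l, with adjusted p = 0.00801. Arhgap39, Spag9, Ero1lb, Zc3h7a, Nktr and Epha1 had log2 fold changes of -0.37 to -0.57. The higher genes had a median transcript length of 2343 bases and the lower ones of 4476.5 bases, over the 12 of each direction.

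Fc receptors and the receptors for complement and chemoattractants let monocytes sense antibody, complement fragments and bacterial peptides. In the Fc receptor list of 9 genes, which also takes in the signalling chain Fcer1g and Pirb, Fcgr1 alone passed the adjusted p. Fcgr4, the activating IgG receptor typical of patrolling monocytes, was at 130 to 242 CPM in CON and at 226 to 350 CPM with a median of 292 CPM in RES libraries, with a log2 fold change of 0.68 (SE 0.20, adjusted p = 0.253 from edgeR). The signalling chain Fcer1g had 0.29 (SE 0.11, adjusted p = 0.382) and the inhibitory receptor Fcgr2b -0.22 (SE 0.13, adjusted p = 0.653), both from edgeR. In this list 3 of 9 genes were higher at unadjusted p under 0.05 and 0 lower, with a median log2 fold change of 0.13, which was 0.07 without RES replicate 1, 0.20 without RES replicate 4, 0.22 without CON replicate 3 and 0.21 without CON replicate 4. The background is 5.61% higher and 4.06% lower over all genes tested, and the same background applies to each list that follows.

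Of 15 chemokine and chemoattractant receptors 4 were higher at unadjusted p under 0.05 and 0 lower, and 0 passed the adjusted p (median log2 fold change 0.24, and 0.15 without RES replicate 1). All 4 were receptors of the innate attractant kind. Fpr1, the formyl peptide receptor, was at 6.75, 7.69, 15.4 and 17.4 CPM in CON and at 18.7 to 38.0 CPM in RES libraries, without overlap (log2 fold change 1.07, SE 0.41, adjusted p = 0.384 from edgeR). Fpr2 had 0.64, Cmklr1, the chemerin receptor, 0.69 and C5ar1, the receptor for complement C5a, 0.66. In the complement list 3 of 14 genes were higher at unadjusted p under 0.05 and 0 lower. C5ar1 is on this list as well and is 1 of the 3. C3 had a log2 fold change of 0.34 and Cfp, which stabilizes the convertase, 0.40. Adhesion genes had 5 of 21 higher at unadjusted p under 0.05 and 0 lower. The junctional protein F11r was at 5.95 CPM on average in CON and 15.4 CPM in RES libraries (log2 fold change 1.37, SE 0.34, adjusted p = 0.149 from edgeR), with 1 RES library inside the CON range. DESeq2 called F11r, with adjusted p = 0.00868. The integrin chain Itgb2 had 0.22, Spn (CD43, a patrolling marker) 0.20 and the selectin ligand Selplg 0.18.

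Among genes of the classical monocyte and of granules, 2 had log2 fold changes near 2 and neither passed the adjusted p with edgeR. Hp, haptoglobin, was at 33.6, 35.5, 40.5 and 49.8 CPM in CON and at 56.3 to 253 CPM with a median of 142 CPM in RES libraries, without overlap (log2 fold change 1.88, SE 0.43, adjusted p = 0.155 from edgeR). Chil3, a chitinase-like protein of classical monocytes, was at 3.85, 5.00, 7.88 and 13.1 CPM in CON and at 13.6 to 60.8 CPM in RES libraries (log2 fold change 1.97, SE 0.48, adjusted p = 0.175 from edgeR). DESeq2 called both, with adjusted p = 0.00245 and 0.00565. Of the 10 classical markers 2 were higher at unadjusted p under 0.05 and 0 lower (median log2 fold change 0.31, and 0.18 or 0.19 without CON replicate 3 or 4), and their summed level was 429 to 631 CPM in CON and 508 to 773 CPM in RES libraries. The other member of the list past that p was Mgst1 (log2 fold change 0.48), while Ly6c2 was at 0.170 to 1.37 CPM in CON and 0.406 to 2.68 CPM in RES libraries. Mmp8, the matrix metalloproteinase at the centre of the study, was near the limit of detection, with 0, 2, 21 and 95 counts in CON libraries and 15 to 52 counts in RES libraries (log2 fold change 0.35, SE 1.07, adjusted p = 0.97 from edgeR). In the granule list 2 of 11 genes (Hp and Chil3) were higher at unadjusted p under 0.05 and 0 lower, and Lyz2, lysozyme, had a log2 fold change of 0.28. The granule median of 0.35 was 1.22 without CON replicate 1, 0.55 without CON replicate 3, 0.03 without CON replicate 4, 0.21 without RES replicate 2, 0.11 without RES replicate 5 and 1.09 when at least 10 counts were required in every library.

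Genes of inflammatory signalling were split. Of 15 cytokine and chemokine genes 2 were higher and 1 lower at unadjusted p under 0.05. Tnf was at 56.1 to 77.5 CPM in CON and at 42.9 to 51.9 CPM in RES libraries, without overlap (log2 fold change -0.49, SE 0.14, adjusted p = 0.193 from edgeR). Ccl6 had a log2 fold change of 0.34 and Il1rn, the interleukin-1 receptor antagonist, 1.03. Il1b did not overlap either, at 80.0 to 116 CPM in CON and 120 to 194 CPM in RES libraries (log2 fold change 0.67, SE 0.34, adjusted p = 0.569 from edgeR). In the NF-kappaB list 3 of 16 were higher (Ikbke 1.12, Bcl3 0.76 and Tnip1 0.24 in log2 fold change) and 3 lower, among them Nfkbiz with -0.29. Toll-like receptors and adaptors had 2 of 22 higher and 4 lower. Cd14, the co-receptor for lipopolysaccharide, had the highest fold change at 1.37 (SE 0.38, adjusted p = 0.178 from edgeR) and Tlr11 the lowest at -1.66 (SE 0.46, adjusted p = 0.184 from edgeR). Myd88 had 0.30 and Irak2 -0.38. None of these genes passed the adjusted p with edgeR, and DESeq2 called Ikbke (log2 fold change 1.11, adjusted p = 0.0281).

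Interferon genes gave no call. Of 20 genes of the type I interferon response 0 were called and 0 had an unadjusted p under 0.05 (edgeR, median log2 fold change 0.06, range -0.57 to 1.13), with Usp18 at -0.42 and Xaf1 at -0.46. Of 15 genes of the interferon gamma response 1, the feedback inhibitor Socs3, was higher at unadjusted p under 0.05 (log2 fold change 0.81, SE 0.31, adjusted p = 0.408 from edgeR) and 0 lower. Their median was -0.12, and it was 0.31 without CON replicate 4, -0.33 without CON replicate 1 and -0.30 without CON replicate 3, so that its sign rests on single libraries. The type I median also changed sign without RES replicate 2 (-0.13), CON replicate 1 (-0.03) or CON replicate 3 (-0.03). Ciita, the master regulator of MHC class II, was at 50.5 to 177 CPM in CON and 51.9 to 92.7 CPM in RES libraries. The 14 MHC class II presentation genes had a median log2 fold change of -0.48 with only 3 of them above 0, yet 1 was lower at unadjusted p under 0.05 (H2-Ob, -0.89) and 2 were higher (the protease Ctss, 0.29, and Rfxank, 0.62). That median was -0.18 without CON replicate 3, against -0.66 without CON replicate 2. In the 10 libraries with a low noncoding share the medians were -0.11 for MHC class II presentation, -0.41 for the interferon gamma response, 0.07 for chemokine and chemoattractant receptors, 0.20 for classical markers and 0.38 for Fc receptors. Of 17 MHC class I genes 1 was higher (H2-D1, 0.31) and 0 lower.

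Genes that respond to stress hormones and to handling came next. Of 16 glucocorticoid targets 15 had a log2 fold change above 0 (median 0.21), 3 were higher at unadjusted p under 0.05 and 0 lower. These were Tgfbr3 (0.38, adjusted p = 0.149 from edgeR), Fkbp5, a chaperone of the glucocorticoid receptor (0.39, adjusted p = 0.448) and the metallothionein Mt1 (1.63, adjusted p = 0.51). Immediate early genes had 0 of 20 higher and 1 lower (Egr3, -1.12), with Nr4a3 at -0.73. Heat shock genes had 3 of 17 lower at unadjusted p under 0.05 (Hsph1 -0.84, Hsp90aa1 -0.45 and Hspa5 -0.29) and 1 higher (Dnajb1, 0.54). In the circadian clock list 1 of 18 was higher, Nfil3 (log2 fold change 0.94, SE 0.30, adjusted p = 0.288 from edgeR), and 1 lower, Clock (-0.25).

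**Figure D3:**
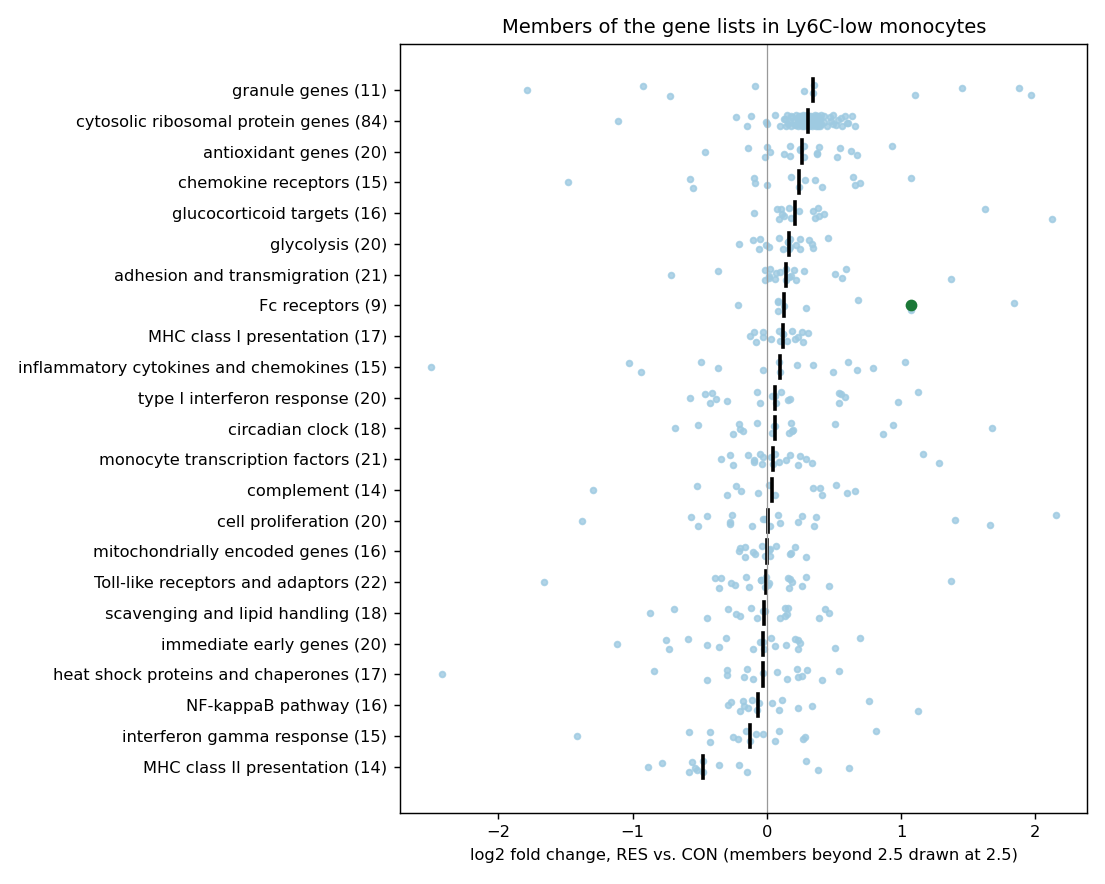
Log2 fold change of RES vs. CON mice (x axis) for each tested member of the gene lists (y axis, number of members tested in parentheses). Light points are members, black bars the list medians and the green point marks Fcgr1. The median of MHC class II presentation stands lowest at -0.48, and that of granule genes highest at 0.35, a value that is 1.22 without CON replicate 1 and 0.03 without CON replicate 4.

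Genes of protein synthesis and energy metabolism had small positive fold changes in many members, none past the adjusted p. Of 84 cytosolic ribosomal protein genes 79 had a log2 fold change above 0, 49 were higher at unadjusted p under 0.05 and 0 lower, and 0 passed the adjusted p (median 0.31). The name pattern used for this list also took in 9 ribosomal S6 kinase genes, with which the count was 52 of 93 higher and 1 lower (median 0.30). Rpl22 was at 101 to 135 CPM in CON and at 133 to 230 CPM in RES libraries (log2 fold change 0.59, SE 0.13, adjusted p = 0.082 from edgeR), Rpl8 had 0.32 and Rpl27a 0.47. Ribosomal protein genes have many near-identical pseudogene copies, so their counts are uncertain.

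Antioxidant genes had 6 of 20 higher at unadjusted p under 0.05 and 0 lower (median log2 fold change 0.26). Gpx4, the peroxidase that protects membrane lipids, was at 29.8, 31.6, 36.9 and 38.2 CPM in CON and at 45.8 to 68.8 CPM in RES libraries, without overlap (log2 fold change 0.67, SE 0.15, adjusted p = 0.0981 from edgeR). Prdx5 was at 65.2 to 84.5 CPM in CON and at 97.6 to 130 CPM in RES libraries. Gsr, glutathione reductase, had 0.38 and Txn1, thioredoxin, 0.63. Glycolysis genes also had 6 of 20 higher and 0 lower (median 0.16, and 0.05 without CON replicate 1), led by Pkm (0.34), Pgam1 (0.45), Eno1 (0.32) and Ldha (0.34). A list of 84 nuclear genes for subunits of oxidative phosphorylation, which was drawn up after the values were seen and is given without a test, had a median log2 fold change of 0.31. The 16 mitochondrially encoded genes had a median of 0.00, with mt-Rnr2 at 0.30 and mt-Atp6 at 0.18.

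Transcript length and GC content moved with this shift. Among 9312 protein-coding genes above 5 CPM, the median log2 fold change was 0.14 in the fifth with the shortest transcripts (up to 2098 bases) and -0.06 in the fifth with the longest (above 5464 bases). It was -0.06 in the fifth with the lowest and 0.08 in the fifth with the highest GC content. Of the ribosomal protein genes 72 of 84 fell in the range of the shortest class. With offsets for GC content and length, added after the data were seen, the ribosomal median was 0.19, the antioxidant median 0.26, the glycolysis median 0.12 and that of the oxidative phosphorylation subunits 0.19. The part of length and GC content in the result was not tested further.

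**Figure D4:**
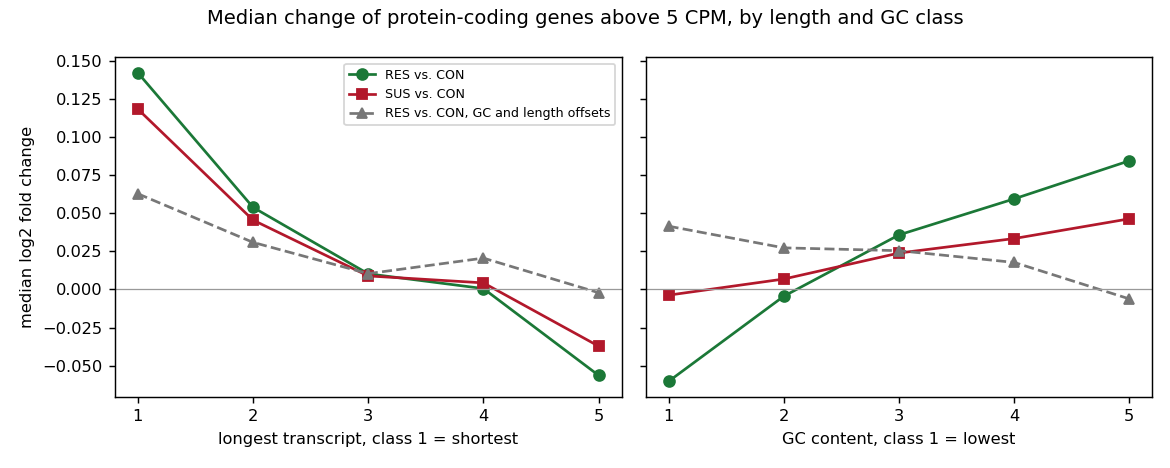
Median log2 fold change (y axis) of 9312 protein-coding genes in 5 classes of equal size by length of the longest transcript (left) and GC content (right). Green circles are RES vs. CON, red squares SUS vs. CON, which share the CON libraries, and grey triangles RES vs. CON with offsets for GC content and length. The RES vs. CON median runs from 0.14 in the shortest to -0.06 in the longest class.

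Among 21 monocyte transcription factors 3 were higher and 2 lower at unadjusted p under 0.05. Pou2f2, a patrolling marker as well, was at 637 to 755 CPM in CON and at 512 to 607 CPM in RES libraries (log2 fold change -0.28, SE 0.07, adjusted p = 0.167 from edgeR), Zeb2 had -0.25 and Gfi1 1.28. Outside these, scavenging and lipid genes had 0 of 18 higher and 1 lower at unadjusted p under 0.05. Cell proliferation genes had 0 of 20 higher and 1 lower, Tk1 (-0.44).

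Genes of other blood cells had fold changes away from 0 as well, and none passed the adjusted p with edgeR. All 6 red cell markers had a log2 fold change above 0 (median 1.23, and 0.70 without RES replicate 2, the library with the highest sum) and 4 were higher at unadjusted p under 0.05. Their summed level was 351 to 1485 CPM in CON and 1031 to 4513 CPM in RES libraries, with an overlap of the groups. Hbb-bs, a beta globin, was at 88.0, 126, 159 and 308 CPM in CON and at 225, 237, 240, 258, 401 and 1026 CPM in RES libraries (log2 fold change 1.22, SE 0.55, adjusted p = 0.50 from edgeR), and Hba-a2 and Hbb-bt had 1.23 and 1.28. With a covariate made of the average log2 level of these markers, the log2 fold changes of Fcgr1, Mpzl3, Slc46a3 and Fchsd2 were 0.96, 1.13, -0.88 and -0.74, and 0 genes passed either threshold with edgeR, with 734 higher and 580 lower at unadjusted p under 0.05. The median of the ribosomal protein genes was then 0.21. That of the type I interferon response was -0.44, against 0.06 without the covariate, and that of complement 0.42, against 0.04. The MHC class II presentation median was -0.49 and the antioxidant median 0.26. The part of red cell RNA in the other differences was not tested beyond this fit. In sorted bulk RNA, fewer cells of a type and less RNA per cell cannot be told apart.

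B cell markers summed to 23.8 to 29.7 CPM in CON and 15.1 to 23.0 CPM in RES libraries, without overlap, but the members were split. Of 8 B cell markers 3 had a log2 fold change above 0 (Cd79b 0.42, Pax5 0.22 and Fcmr 2.30), and 1, Cd79a, was lower at unadjusted p under 0.05. Their median was -0.91, and -0.33 in the 10 libraries with a low noncoding share. Cd79a, a chain of the B cell receptor, was at 9.43, 13.1, 16.4 and 18.5 CPM in CON and at 5.29 to 8.16 CPM in RES libraries (log2 fold change -1.07, SE 0.27, adjusted p = 0.149 from edgeR, and 0.0229 from DESeq2, which called it). The 8 dendritic cell markers had log2 fold changes below 0 (median -0.64), among them Zbtb46 (-0.75) and Ccr9 (-0.79), and their summed level overlapped at 136 to 337 CPM in CON and 76.8 to 227 CPM in RES libraries. The eosinophil peroxidase gene Epx was at 0, 0, 0.876 and 20.2 CPM in CON libraries, so that its log2 fold change of -3.83 (adjusted p = 0.607 from edgeR) rested on CON replicate 3 and was 0.34 without it. Platelet markers summed to 14.0 to 19.0 CPM in CON and 17.6 to 27.7 CPM in RES libraries. Of 9 platelet markers 6 had a log2 fold change above 0, and 1, Tubb1 (1.21), was higher at unadjusted p under 0.05, while others, such as Gp5 (-0.58) and Pf4 (-0.06), lay below 0. For neutrophil, T cell, natural killer cell, and basophil and mast cell markers, 0 genes had an unadjusted p under 0.05 with edgeR. All 9 natural killer cell markers still had a log2 fold change above 0 (median 0.48, and -0.10 in the 10 libraries with a low noncoding share). Their summed level overlapped at 432 to 1392 CPM in CON and 802 to 2139 CPM in RES libraries. The neutrophil-defining marker Ly6g was at 0 counts in all 10 libraries.

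**Figure D5:**
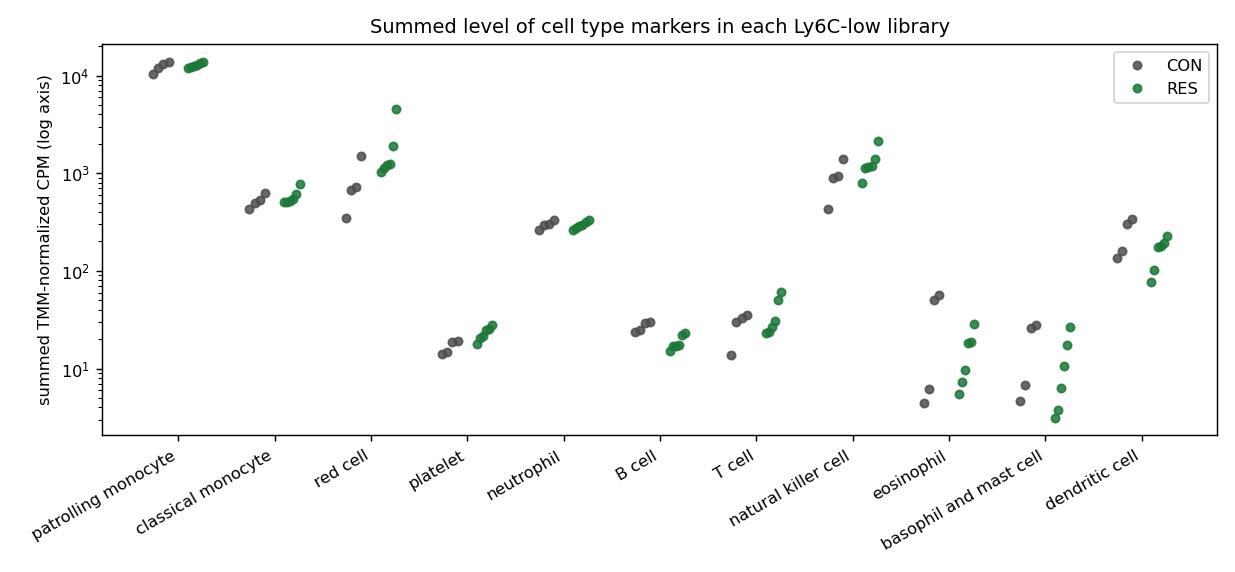
Summed TMM-normalized CPM of the markers of 11 cell types (log y axis) in each Ly6C-low library of CON (grey) and RES (green) mice. Patrolling markers lie between 10465 and 13852 CPM in all 10 libraries, and the red cell sum of 1 RES library reaches 4513 CPM.

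RES and SUS mice had the same stress and differed in behaviour, and their comparison needs no CON library. Of 19521 genes 0 were called between them (0%), 0 passed the adjusted p alone, and 740 (3.79%) had an unadjusted p under 0.05 with edgeR. DESeq2 called 0 genes as well. For Fcgr1 the difference of RES from SUS was -0.12 (SE 0.16), for Mpzl3 0.23 (SE 0.17), for Slc46a3 0.21 (SE 0.12) and for Fchsd2 -0.16 (SE 0.14) on the log2 scale, with adjusted p = 1 for each (edgeR). Levels in SUS libraries were 50.0 ± 12.3 CPM for Fcgr1, 16.0 ± 2.46 CPM for Mpzl3, 74.9 ± 13.8 CPM for Slc46a3 and 26.5 ± 4.80 CPM for Fchsd2 (SD, n = 6). Against the CON libraries, which both comparisons share, the SUS log2 fold changes were 1.20, 0.86, -1.03 and -0.65 in the same order. All 12 higher and all 12 lower genes with the smallest p had the same sign in SUS vs. CON. They were picked because their RES libraries lay apart from these same CON libraries, which favours that sign. This agreement is therefore no separate evidence. The SUS vs. CON median was -0.91 for MHC class II presentation, -1.22 for dendritic cell and 1.05 for red cell markers. It had the other sign for T cell, natural killer cell, basophil and mast cell markers, and for the interferon gamma, Toll-like receptor, scavenging and clock lists.

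In Ly6C-high monocytes, with CON libraries of their own (whether they came from the same mice is not given), Fcgr1 also rose in RES mice (log2 fold change 1.05, SE 0.21, adjusted p = 0.0138 from edgeR), and Slc46a3 fell (-0.76, SE 0.22, adjusted p = 0.0428). Mpzl3 had 0.83 (SE 0.52, adjusted p = 0.379) and Fchsd2 -0.52 (SE 0.18, adjusted p = 0.0893) by the same test. On the scale of all 70 libraries, Fcgr1 went from 18.1 ± 4.73 to 38.9 ± 6.34 CPM in Ly6C-low and from 83.6 ± 10.2 to 176 ± 44.1 CPM in Ly6C-high monocytes. The difference between the cell types in the RES vs. CON change was 0.04 (SE 0.95) for Fcgr1, 0.28 (SE 0.55) for Mpzl3, -0.04 (SE 0.32) for Slc46a3 and -0.28 (SE 0.41) for Fchsd2, none past the test (adjusted p = 0.964 to 1, edgeR). This fit took in all 70 libraries, and its standard errors leave room for sizeable differences. They also draw on the B and T cell libraries, where Fcgr1 was at 0.0117 and 0.244 CPM in CON. The SE of the Fcgr1 change in the fit of the Ly6C-high libraries alone was 0.21. Over all genes, this difference passed an adjusted p under 0.05 in 17 of 24327 (0.0699%), with 2608 at unadjusted p under 0.05. All 17 had at least 1 library at 0 counts in one of the 4 groups and 10 had a median under 50 counts in every group. Requiring at least 10 counts in every library therefore took all 17 out before the test, and 0 of the genes left passed. When only the monocyte libraries were fitted, 0 passed.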

How the data were processed

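RNA was sequenced from leukocytes sorted from mouse blood. According to the study's methods, the authors made total RNA libraries (SMARTer Stranded Pico kit), aligned paired reads with HISAT2 to mm10 and counted them per Ensembl gene with HTSeq. The deposited values are whole read counts, not normalized. The strand option and the treatment of duplicates and multimapped reads were not given in the sources used here. The authors' own comparisons used DESeq2.

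The table held 52636 genes, of which 52403 matched GENCODE M21, and 0 columns were unused. In R 4.3.3, edgeR 4.0.16 fitted the 16 Ly6C-low libraries (4 CON, 6 SUS, 6 RES) with TMM scaling, filterByExpr, robust quasi-likelihood and Benjamini-Hochberg adjustment over all genes tested. Genes were called at adjusted p under 0.05 and absolute log2 fold change above 1. The interaction used all 70 libraries. DESeq2 1.42.0 was an alternative. Of 36 pairs of libraries of one group, 0 were identical, and the lowest chi-square per degree of freedom was 33.2. In simulated counts, 116 of 200 genes changed by 1.5 on the log2 scale were called, with 1 unchanged gene called among 18682. Totals were 22952329 to 38897675 counts.

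Genes were named by rule, as those past the adjusted p, the 12 per direction with the smallest p among protein-coding genes averaging 50 counts or more whose groups lay apart, and the 4 with the smallest p per list. The members and lists were chosen with earlier results of these data known. Replicate numbers follow accession order. Some genes that this rule names are not reported here.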

Additional observations from a re-analysis of the deposited data

Results flagged for a closer look

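Of 45 groups of samples examined, 3 held a sample far from the others, and chance flags about 1 in 20 such groups. The noncoding genes Gm23935 and Gm26917 took 10.93% of the counts in CON replicate 3, against 0.467% to 1.79% in the other 3 CON libraries. It is 1 of 6 Ly6C-low libraries with consecutive numbers, from all 3 groups, that lay at 6.33% to 13.1%, while the other 10 lay at 0.395% to 1.91%. The summed red cell markers reached 4513 CPM in RES replicate 2, against 1031 to 1917 CPM in the other 5 RES libraries. Slc46a3 was at 101.3 CPM in SUS replicate 6, against 60.9 to 74.1 CPM in the other 5 SUS libraries.

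A test of the difference itself gave 17 genes whose RES vs. CON change differed between Ly6C-low and Ly6C-high monocytes, 14 with the larger and 3 with the smaller value in Ly6C-low cells. All 17 had a library at 0 counts in at least one of the 4 groups, and the libraries of Ly6C-low RES and CON mice did not overlap in 2 of them.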

How the results depend on the processing

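The count of genes called in RES vs. CON mice was 3. It was 14 with DESeq2 (10 higher, 4 lower, including the same 3), 6 without the low-count filter, 5 when only the RES and CON libraries were fitted, 1 without robust estimation, 0 with the red cell covariate, 5 at the adjusted p alone and 0 with glmTreat against a log2 fold change of 1. With 1 library left out it was 1 to 3. It was 1 without RES replicate 2, RES replicate 6, CON replicate 2 or CON replicate 3. The count was 3 or 4 under the other settings (DESeq2 size factors, at least 10 counts in every library, without mitochondrial, hemoglobin and ribosomal RNA genes, thinned totals, and 3 added after the data were seen, a covariate for the noncoding share, a term for the 6 libraries where it was high, and offsets for GC content and length). Also added then, a fit of the 10 libraries with a low noncoding share gave 0 calls, with fewer samples. RES vs. SUS gave 0 calls under every setting run. The count of genes with a different change in Ly6C-high cells was 17. It was 0 with at least 10 counts in every library, a filter that took out all 17 before the test. With only the monocyte libraries it was 0. It was 1 to 19 with a library left out, with 6, 11, 1 and 8 without CON replicates 1, 2, 3 and 4. Over 101 genes examined singly and 2314 values under alternatives, 6 passed and 22 lost the threshold, and 2 reversed, both of Epx, at 0.34 without CON replicate 3 (range -5.19 to 0.34 with a library left out) and 0.89 in the libraries with a low noncoding share. The cause was not tested. No paired analysis was possible because the labels give no replicate numbers.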
